A study of Mus musculus with 8 samples.

Results

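In the Argonaute binding map of the mouse forebrain, 1483 of 70142 clusters of reads (2.11%) named a gene in the coding sequence (CDS) column and a gene in the 3' UTR column at once. They were taken from the deposited table by that rule alone, with no measured value used. The same gene stood in both columns in 1464 of them, or 98.7% (95% Wilson interval 98.01 to 99.18), and different names stood there in 19. They were set beside the 7801 clusters that named a 3' UTR and no CDS and the 12960 that named a CDS and no 3' UTR. Of the 22244 clusters that named either, those naming both were 6.67% (6.347 to 7.002), and they held 46960 of 707164 reads, or 6.64%.

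Argonaute proteins carry a miRNA, whose seed near the 5′ end pairs with the target RNA, and most known target sites lie in 3' UTRs, past the stop codon where ribosomes end translation. Sites in coding sequence also bind Argonaute, and translating ribosomes pass over them. A cluster that touches both regions can sit across the stop codon of 1 mRNA, or on an exon that is coding in 1 isoform and untranslated in another.

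The map comes from FLAG-Ago HITS-CLIP, in which tissue is irradiated with UV light, RNA is trimmed with RNase and the RNA crosslinked to tagged Argonaute is pulled down and sequenced. Per the labels, 5 libraries (1, 2a, 2b, 3a and 3b) came from mice that carried Camk2a-cre; Rosa-Stopfl/fl-Flag-Ago2, and 3 (1, 2 and 3) from controls with Rosa-Stopfl/fl-Flag-Ago2 and no Cre, in 3 experiments. All mice were 8 to 14 weeks old and carried the Cre-inducible Flag-Ago2 allele at Rosa26, which Cre from a Camk2a promoter switches on in forebrain neurons of that type. The protocol text used here breaks off at a mention of RNA from several CLIP procedures, so whether a library pools animals is not known from it.

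The table as deposited has 1 read count per cluster and 0 columns for single libraries. Each value below is therefore a single pooled value: there is no spread between replicates, no control level and no test, and intervals are 95% intervals that cover counting error only. The table held 1834586 reads in all, with at least 10 reads in every cluster. The labels give the cell type as Camk2a neuron. A 3' UTR or CDS cluster was listed for 12 of 12 markers of excitatory forebrain neurons, but also for 12 of 12 astrocyte markers, 11 of 14 of oligodendrocytes, 6 of 12 of interneurons and 5 of 12 of microglia. The share of all genes with such a cluster was not computed, so these counts cannot tell the cell types apart. The part of other cells or of the control libraries in any cluster was not tested.

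The run of bases around the stop codon shows what most of these clusters cover. The stop codons of the 6 deepest same-gene clusters that lay over a stop codon are printed with 15 bases of coding sequence before them and 12 bases of 3' UTR after. The stop codon is in capitals, letters are from GENCODE M21 transcripts, and coordinates are on GRCm38 (mm10).
Tnrc6a (chr7:123192934-123192963, plus strand): ggtggggagtccatgTAAtggcataggtat
Ube2e1 (chr14:18283330-18283359, minus strand): aagagatacgctacaTAAactgggttttca
Ipmk (chr10:71381801-71381830, plus strand): agtattttagacagtTGAgtcttgctgcag
Map2k4 (chr11:65690679-65690708, minus strand): cccatgtatgtcgacTGAtaccgctgctac
Ctsl (chr13:64364086-64364115, minus strand): tatcctgtcgtgaatTGAtgggtagcggta
Wdr43 (chr17:71657644-71657673, plus strand): gagagtgaagaagaaTGAagacagatgcag

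A second set shows where seed matches sat beside stop codons. The first 6 lines are mature miRNAs from RefSeq (GRCm38.p6) with bases 2 to 8, the seed, in capitals. The lines below them are mRNA from GENCODE M21 on GRCm38 with the 6 bases complementary to miRNA bases 2 to 7 in capitals, which is what the table counts as a match.
miR-128-3p: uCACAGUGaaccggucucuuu
miR-27b-3p: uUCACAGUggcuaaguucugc
miR-29a-3p: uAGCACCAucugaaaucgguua
miR-181a-5p: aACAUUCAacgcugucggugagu
let-7a-5p: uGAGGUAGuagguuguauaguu
miR-24-3p: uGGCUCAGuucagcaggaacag
Tnrc6a, miR-128 (chr7:123192960-123192989, plus strand): gtatagacgtaaACTGTGacctcacgaaga
Tnrc6a, miR-27 (chr7:123192961-123192990, plus strand): tatagacgtaaaCTGTGAcctcacgaagag
Slc39a13, miR-29 (chr2:91062913-91062942, minus strand): tgttctggtgatGGTGCTgctttcattgtt
Mtch2, miR-181 (chr2:90865245-90865274, plus strand): gttatgacctaaGAATGTtaatctgaagat
Prdx6, let-7 (chr1:161241730-161241759, minus strand): tctggcaaaaaaTACCTCcgttatacaccc
Wdr45b, miR-27 over the stop codon (chr11:121328346-121328375, minus strand): accgatgacaagCTGTGActgtgcctgtga
Fam160b2, miR-24 over the stop codon (chr14:70585030-70585059, minus strand): gaagggcaagtcTGAGCCaggagcatgacg

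Same-gene clusters were about as deep as clusters in a single region. Their median was 22 reads (21 to 23), against 21 (21 to 22) in 3' UTR only clusters and 21 (21 to 21) in CDS only clusters, so the intervals met. The middle part of the distribution was also alike, with quartiles of 14 and 36 reads against 14 and 34 in 3' UTR only clusters and 14 and 33 in CDS only clusters. At the upper end, 50 of the 1464 (3.42%, 2.60 to 4.47) had at least 100 reads, against 200 of 7801 (2.56%) and 298 of 12960 (2.30%). The deepest single sites lay elsewhere: the highest same-gene cluster had 775 reads, against 5730 in a 3' UTR only cluster and 17721 in a CDS only cluster.

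Same-gene clusters were wider, at a median of 160 bases (157 to 165) against 141 (139 to 143) and 133 (132 to 134). A wider cluster is more likely to touch both regions, so the rule itself favours width. In every class wider clusters also had more reads, so reads were set side by side within classes of width. From 100 bases up to 200, same-gene clusters had a median of 20 reads and both other classes 21. Between 200 and 300 bases the medians were 29 for same-gene, 26 for 3' UTR only and 25 for CDS only clusters. Past 300 bases they were 48 in 105 same-gene clusters, 41 in 382 3' UTR only clusters and 39 in 231 CDS only clusters. The higher medians of the same-gene class were thus in the wide clusters.

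**Figure D1:**
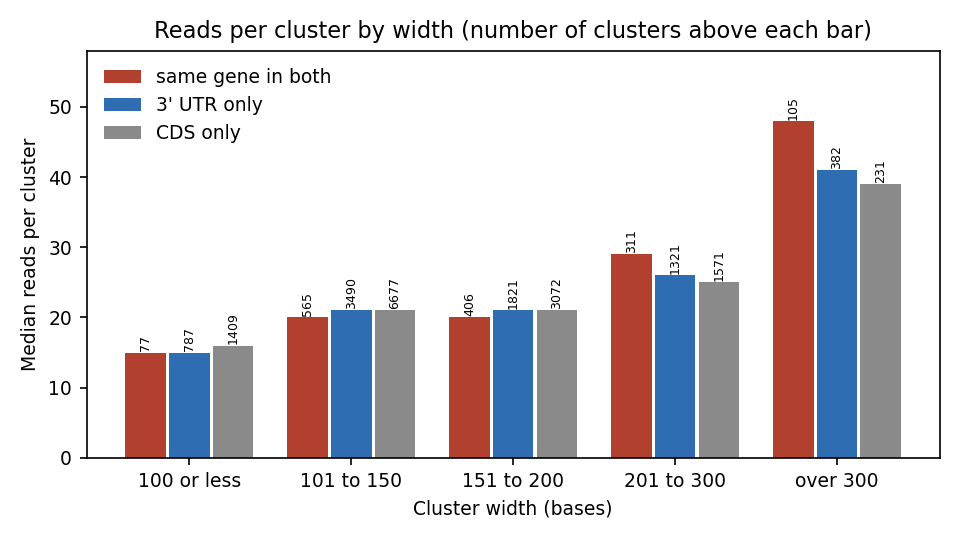
Median reads per cluster (vertical axis) in 5 classes of cluster width in bases (horizontal axis), for clusters with the same gene in both columns, 3' UTR only and CDS only, with the number of clusters above each bar. The 3 classes have medians of 20 or 21 reads between 100 and 200 bases, and same-gene clusters reach 48 past 300 bases.

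Most same-gene clusters lay across the end of an open reading frame. An annotated stop codon of a protein-coding transcript of the named gene was overlapped by 1214 of 1464, or 82.9% (80.9 to 84.8), and 1183 of these stop codons (97.4%) were in the transcript's last exon. The clusters reached to both sides in like measure, with a median of 70 bases of CDS (quartiles 35 and 107) and 76 bases of 3' UTR (39.25 and 127). Of 1194 whose centre fell in an exon, the centre lay at a median of 2 bases past the first base of the stop codon, with quartiles of -34 and 42, and 796 (66.7%, 63.9 to 69.3) were centred within 50 bases of it. Clusters chosen for touching a stop codon lie around it by that choice. Their sides and centres therefore describe geometry and not a preference for the stop codon. A whole cluster lay inside 1 exon in 839 of 1214 (69.1%), and 20 covered an entire 3' UTR.

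The stop codon was TGA in 661 of the 1214 (54.4%, 51.6 to 57.2), TAA in 276 (22.7%, 20.5 to 25.2) and TAG in 277 (22.8%, 20.5 to 25.3). In 7693 genes with a 3' UTR or CDS cluster and a coding transcript, the shares were 50.8% (49.6 to 51.9), 26.1% (25.1 to 27.1) and 23.2% (22.2 to 24.1). TGA was thus somewhat more frequent and TAA less frequent under these clusters, with intervals that overlapped. The 1205 genes with such a cluster and a reference transcript had a median 3' UTR of 1347 bases, close to the 1339 of all 7693 genes. Genes with a 3' UTR only cluster had longer ones, at 1921.5 bases, and genes with a CDS only cluster 1248.

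To see whether the stop codon held more clusters than its surroundings, centres of all classes were counted along 5537 transcripts with at least 600 bases of CDS and of 3' UTR. Between 100 bases before and 100 after the stop codon there were 49.0 centres per 1000 transcripts in 50 bases (46.1 to 52.0). Upstream, from 600 to 100 bases before, there were 41.2 (39.5 to 42.9), and downstream, from 100 to 600 bases after, 34.7 (33.2 to 36.3). The highest bin was the last 50 bases of the CDS, at 53.8, where 280 of 298 centres belonged to same-gene clusters. A cluster centred that close to the stop codon mostly reaches both regions, so its class follows from the rule. The share of bases inside a cluster was also highest around the stop codon, at 14.7%, but was lower upstream (10.6%) than downstream (11.9%), the reverse of the order of the centres. The difference in centres between the stop codon and the CDS was larger than the counting intervals, and single bins of the CDS reached 46.2. Clusters with their midpoint in an intron were not counted. In the clusters over a stop codon it lay a median of 142 bases into its exon, so the upstream zone often holds exon edges. The part of exon edges in the difference was not tested.

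**Figure D2:**
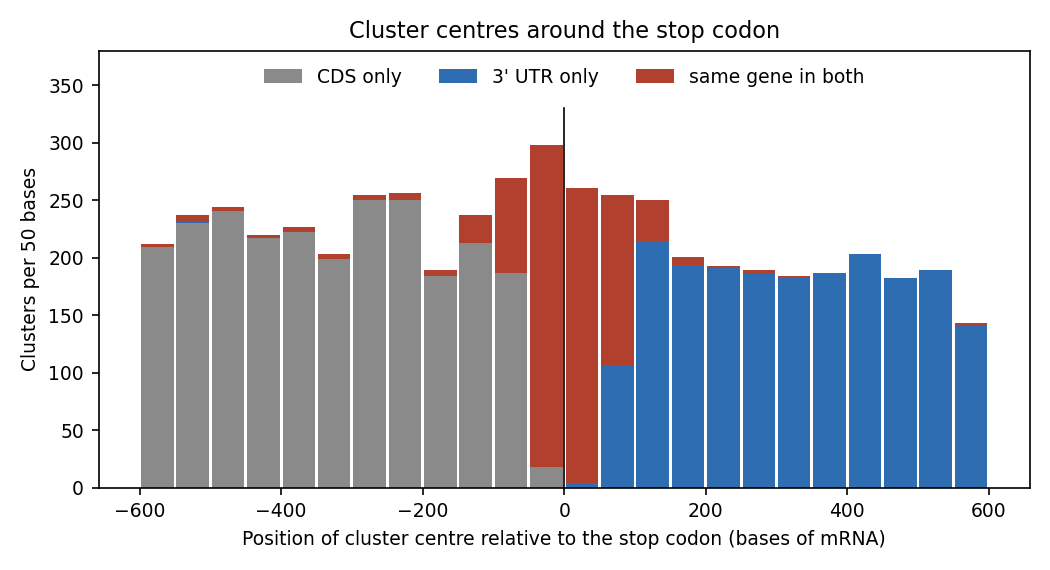
Number of cluster centres per 50 bases (vertical axis) by position in the mRNA relative to the first base of the stop codon (horizontal axis, bases), over 5537 transcripts, stacked by class. Same-gene clusters fill the bins next to the stop codon, 280 of 298 centres in the last 50 bases of the CDS. Clusters centred there mostly reach both regions, so their class follows from the rule. The summed height there is above the bins on both sides. Clusters with their midpoint in an intron are not counted.

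The same-gene clusters off a protein-coding stop codon, 250 in all, were of other kinds. In GENCODE M21, 139 lay in CDS with no 3' UTR of that gene, and 64 lay in CDS and in the 3' UTR of a transcript of a type other than protein coding. A further 23 lay in the CDS of one coding transcript and the 3' UTR of another, 6 lay over a stop codon only in a transcript of another type, 2 lay in a 3' UTR alone and 5 in neither. The gene name had no match on that chromosome and strand for 11. The annotation behind the table's gene columns is not given in the sources used here, so an entry absent from GENCODE M21 may be present in it.

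The clusters over and off the stop codon differed in what else the table listed for them. A circRNA identifier was attached to 83 of 1214 over a stop codon (6.84%, 5.55 to 8.40) and to 64 of 250 off it (25.6%, 20.6 to 31.4), close to the 26.7% of CDS only clusters. An intron was named for 33.3% and 66.4%, against 69.6% of CDS only and 5.18% of 3' UTR only clusters. A 5' UTR was named for 1.48% and 8.8%, against 7.68% of CDS only clusters. Taken as a whole, the clusters off the stop codon thus had shares close to those of CDS only clusters. Their kinds differed, with a circRNA identifier for 36.7% of the 139 in CDS with no 3' UTR. It was 10.9% of the 64 with a transcript of another type and 8.70% of the 23 in 2 coding transcripts. Median reads were 22 over the stop codon and 21 off it, and median widths 165 and 139.5 bases.

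They also differed in how they were spread over genes. The 1214 clusters over a stop codon lay in 1207 genes, with at most 2 in a gene. The 250 off it lay in 145 genes, with up to 10 in a gene, and 17 genes with at least 4 each held 92 of them. The 5 genes with the most clusters are described next.

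Atp2a2, the calcium pump of the endoplasmic reticulum, had 10, all minus strand on chromosome 5, between 122457481 and 122501762. Their reads were 102, 48, 43, 35, 29, 28, 26, 19, 18 and 10, and all 10 lay in CDS and in no Atp2a2 3' UTR of GENCODE M21. Ankrd11, a chromatin regulator with ankyrin repeats, had 9 on chromosome 8, with 13 to 52 reads and a median of 23, all in CDS and in the 3' UTR of a transcript of another type. Slc8a1, the plasma membrane sodium-calcium exchanger and a known source of circular RNA, had 9 with 12 to 99 reads, and a circRNA identifier stood beside each of the 9. The reads within a gene thus differed by several fold between clusters of the same pooled libraries.

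Dnm1, the GTPase that pinches off synaptic vesicles in endocytosis, had 7 with 11 to 57 reads, of which 5 carried a circRNA identifier. Nin, which encodes the centrosome protein ninein, had 6 with 11 to 47 reads, and it was the only gene of the 5 with a cluster over its stop codon, of 25 reads. In Atp2a2, Ankrd11, Slc8a1 and Nin no cluster named the CDS alone, and in Dnm1 only 1 did. In these genes nearly every cluster that named the CDS therefore named the 3' UTR too, and all but the 1 in Nin lay off the protein-coding stop codons of GENCODE M21.

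**Figure D3:**
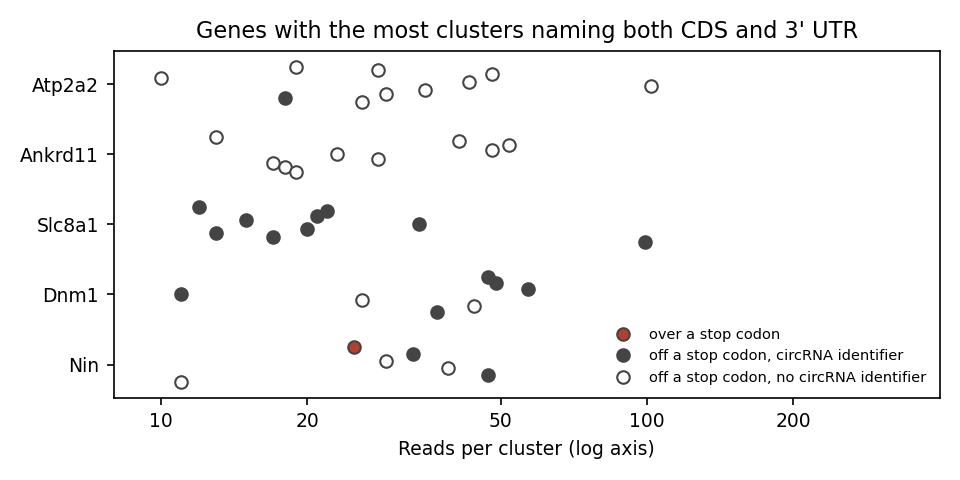
Reads per cluster (horizontal log axis) in the 5 genes with the most same-gene clusters, staggered vertically within a gene by position, with fill showing clusters over a stop codon and those off it with and without a circRNA identifier. Only 1 cluster, in Nin with 25 reads, lies over a stop codon, and all 9 of Slc8a1 carry a circRNA identifier.

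The deepest same-gene cluster belonged to the miRNA pathway itself. Tnrc6a encodes a GW182 protein, the partner through which Argonaute silences mRNAs. Its cluster at chr7:123192927-123193199 had 775 reads, which put it at rank 39 of all clusters, and covered 22 bases of CDS, the TAA stop codon and 248 bases of a 3' UTR of 2345. It held the overlapping matches to miR-128 and miR-27 printed above, which begin 23 and 24 bases past the start of the stop codon. The cluster also held 1 match each to miR-26, miR-23 and miR-17. Among same-gene clusters it was the deepest with a match to either family, and also the deepest with one within 30 bases of the stop codon.

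Ube2e1, a ubiquitin-conjugating enzyme, followed with 386 reads at chr14:18283146-18283443, over 95 bases of CDS and 196 of 3' UTR, with Nkiras1 listed on the opposite strand. Ipmk, an inositol phosphate kinase, had 376 reads at chr10:71381711-71381884, and Map2k4, a kinase that activates JNK, 359 at chr11:65690591-65690822. Both leaned to the coding side, with 105 and 111 bases of CDS against 66 and 100 of 3' UTR. Ctsl, the lysosomal protease cathepsin L, had 257 reads at chr13:64364037-64364232 with 1 miR-128 match and 2 miR-9 matches. Wdr43, a factor of ribosome assembly, had 249 at chr17:71657488-71657704. The Wdr43 cluster was the deepest same-gene cluster with a miR-124 match and covered 171 bases of CDS and 43 of 3' UTR. These stop codons are all in the last exon.

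Arf3, a small GTPase of the Golgi, had 221 reads at chr15:98740149-98740595 over its TGA, with a circRNA identifier, and 101 of its bases lay in an intron. Abcd2, a peroxisomal fatty acid transporter, had 173 reads at chr15:91148961-91149096 with 108 bases of CDS and 25 of 3' UTR, the deepest same-gene cluster with a miR-29 match. The other 2 of the 10 deepest were off a stop codon. Snap91, which builds clathrin coats on synaptic vesicle membrane, had 273 reads at chr9:86815402-86815517, in CDS with a circRNA identifier, and 5 same-gene clusters in all. Pcdh7, a protocadherin, had 189 reads at chr5:58129045-58129250, in the CDS of one coding transcript and the 3' UTR of another. These 10 held 7.01% of the reads of same-gene clusters, so no single gene carried the class.

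Seed matches were counted by family, each family being the miRNAs that share the 6 bases, named here by 1 of them. In same-gene clusters miR-128, abundant in neurons, had 231 matches in 215 clusters (14.7%), or 0.877 per kb (0.768 to 0.998), between the 0.903 per kb of 3' UTR only and the 0.820 of CDS only clusters. The miR-27 family, whose 6-mer overlaps that of miR-128 by 5 bases, had 0.858 per kb against 0.873 and 0.794. Neuronal miR-124 had 0.600 against 0.698 and 0.467. Of 25 families known to be abundant in brain, 17 had a density between those of the other 2 classes, 4 had a higher and 4 a lower one. Of 15 families of other tissues, 8 were between, 3 above and 4 below. In clusters of at least 50 reads the log2 ratio of miR-128 matches per kb to CDS only clusters turned from 0.10 to -0.43.

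The families outside that range lay on both sides of it. Measured by the ratio to the nearer class, the miR-29 6-mer was the furthest below of the 40, with 0.441 matches per kb (0.364 to 0.528) in same-gene clusters against 0.590 in 3' UTR only and 0.577 in CDS only clusters. It had 0.414 per kb in clusters over the stop codon and 0.595 in those off it. The miR-181 6-mer had 0.304 (0.241 to 0.378) against 0.501 and 0.361, so that its interval held the CDS only value. The miR-223 6-mer, of a myeloid family, was by the same measure the furthest above, with 0.387 (0.316 to 0.470) against 0.309 and 0.252. The let-7 6-mer had 0.281 (0.221 to 0.353) against 0.253 and 0.240, within its counting interval. The miR-16 6-mer had 0.870 (0.761 to 0.990) against 0.698 and 0.847.

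Matches on each side of the stop codon were also set beside the rest of the same CDS or 3' UTR. This was done for the 30 of 40 families with a mature sequence in RefSeq. Gene and region were thus alike, but the distance to the stop codon was not. The clusters held 96.6 kb of CDS and 113 kb of 3' UTR. On the coding side miR-128 had 0.756 matches per kb (0.593 to 0.951) against 0.458 (0.431 to 0.487) in the rest of the CDS. On the 3' UTR side it had 0.905 (0.738 to 1.10) against 0.499 (0.469 to 0.531). Its log2 ratios of 0.72 and 0.86 were the highest of 23 brain families on both sides. The 6-mer GACTGT, which has ACTGT in common with the miR-128 match and lies in the complement of the 5' adapter of the library kit, was higher as well. It had 0.445 against 0.291 per kb on the coding side and 0.577 against 0.340 on the 3' UTR side, log2 ratios of 0.61 and 0.76. The part of the adapter in the miR-128 value was not tested. Matches to miR-128 were also counted in 25-base bins by distance to the stop codon. From it to 150 bases past it, all genes had 0.539 to 0.695 per kb and the clusters 0.720 to 1.23. Over the last 150 bases of CDS the values were 0.416 to 0.562 and 0 to 1.13. The part of this distance in the difference from the rest was not tested.

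Other families differed mainly on the 3' UTR side, where the interval lay above the rest of the 3' UTR for 8 of 30 families and below it for 4, against 1 and 1 on the coding side. In the 3' UTR miR-27 had 0.914 per kb (0.746 to 1.11) against 0.578, and let-7 0.311 (0.216 to 0.432) against 0.198, while on the coding side both stayed within counting error of the rest of the CDS. The miR-103 6-mer had 0.728 (0.579 to 0.903) against 0.521 in the 3' UTR, but 0.673 (0.520 to 0.858) against 0.881 in the CDS, and so lay on opposite sides of its background. The miR-16 6-mer was also higher in the 3' UTR, at 0.825 against 0.554, and so were those of miR-205 and miR-223, families of epithelial and myeloid cells, at 0.479 against 0.335 and 0.444 against 0.262. Matches to miR-129 were fewer on the 3' UTR side, at 0.328 against 0.535, as were those to miR-200b, an epithelial family, at 0.160 against 0.395. Over the 23 brain families the median log2 ratio was 0.04 on the coding side, with 14 above 0, and 0.10 on the 3' UTR side, with 15 above 0. Over the 7 other families it was 0.05 with 4 above 0, and -0.43 with 2 above 0.

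**Figure D4:**
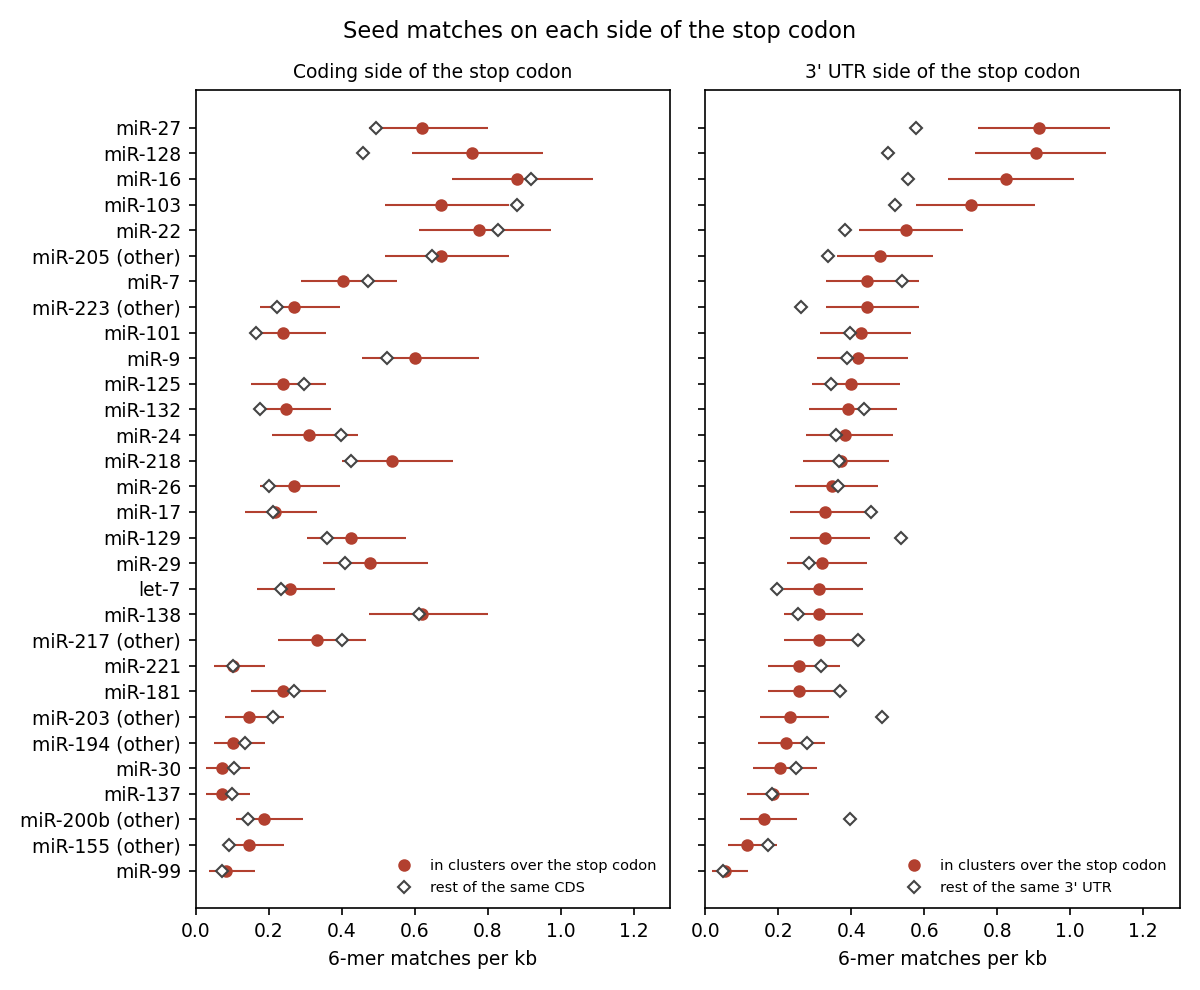
Seed matches per kb (horizontal axes) for 30 miRNA families on the coding side and on the 3' UTR side of the stop codon, in clusters over the stop codon (points, with 95% exact Poisson intervals) and in the rest of the same CDS or 3' UTR (diamonds). The miR-128 points, 0.756 and 0.905, stand to the right of their diamonds on both sides, and 28 of 30 intervals on the coding side and 18 of 30 on the 3' UTR side hold their diamond.

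Close to the stop codon the same families were seen in named genes. Matches within 30 bases of the stop codon were counted with no background share beside them. The counts therefore cannot show a preference of a family for the stop codon. Some other families were also frequent: miR-205, of epithelial cells, in 72 clusters, miR-16 and miR-22 in 57 each and miR-24 in 54. The match covered the whole stop codon in 32 clusters for miR-27, 32 for miR-24 and 24 for miR-205. Within 30 bases, matches to miR-27 occurred in 88 clusters, to miR-128 in 65, to miR-29 in 22, to miR-181 in 19 and to let-7 in 18. Beside Tnrc6a, the deepest of these with a miR-29 match was in Slc39a13, a zinc transporter, with 92 reads at chr2:91062654-91062935, where the match begins 25 bases before the stop codon. For miR-181 it was Mtch2, a protein of the outer mitochondrial membrane, with 74 reads at chr2:90865182-90865331 and a match 11 bases before. For let-7 it was Prdx6, an antioxidant enzyme, with 95 reads at chr1:161241268-161241800 and a match 24 bases before. In these 3 genes the match lies in coding sequence. The printed run of Mtch2 reaches its stop codon, at bases 24 to 26 of the run, and those of Slc39a13 and Prdx6 end before theirs.

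With no limit on the distance to the stop codon, the deepest same-gene cluster with a miR-181 match was in Foxo3, a forkhead transcription factor, with 160 reads and a circRNA identifier at chr10:42196499-42196810. That cluster covered 307 bases of CDS and 2 of 3' UTR. The deepest same-gene cluster with a let-7 match was in Elp2, a subunit of Elongator, with 134 reads.

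Some 6-mers contain a stop codon, so the translation stop can itself be part of the match. The match covered all 3 bases of the stop codon for miR-27 (CTGTGA) in 32 of 1214 clusters, 2.64%, and for miR-24 (TGAGCC) in 32, also 2.64%. For miR-205 (TGAAGG) it did so in 24 (1.98%), for miR-221 (TGTAGC) in 10 (0.824%), for miR-223 (ACTGAC) in 7 (0.577%) and for miR-26 (ACTTGA) in 3 (0.247%). Over the stop codons of 7693 genes the same shares were 2.14%, 2.72%, 1.53%, 0.884%, 1.25% and 0.390%. The shares were thus close to those of all genes except for miR-223, where they were lower, from 7 clusters. Examples are Wdr45b with 95 reads for miR-27 and Fam160b2 with 130 for miR-24, printed above, Cdk5r1, the activator of the neuronal kinase Cdk5, with 118 for miR-24, and the calmodulin gene Calm3 with 117 for miR-205. Only 6-mers were matched, and a match is a description of the letters and not a site.

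Same-gene clusters occurred in 1339 of 7897 genes with a 3' UTR or CDS cluster, or 16.96% (16.1 to 17.8). In 327 of them (24.4%) such clusters were the gene's only ones, 659 also had a 3' UTR only cluster, 823 a CDS only cluster and 471 both. The share depended on how many clusters a gene had: it was 10.0% of 3041 genes with 1 cluster, 15.8% with 2, 21.2% with 3 or 4, 27.7% with 5 to 9 and 33.5% of 242 genes with 10 or more. Gene lists are therefore given with their median number of clusters per gene, which was 2 over all genes. No list was matched for expression or cluster number. A match named beside a gene of a list is not its only one: the clusters of Sv2b, Drosha, Rbfox2 and Eef1a2 also held matches to other families.

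Genes of the glutamate synapse had such a cluster in 9 of 19 (47.4%, 27.3 to 68.3), with a median of 7 clusters per gene. They included Dlg4, which encodes the scaffold PSD-95, with 65 reads over its TGA at chr11:70044557-70044764. Others were the AMPA receptor genes Gria2 and Gria4, the NMDA receptor gene Grin1, Grm5, Dlg2, Homer1 and Cnih2. Gria2 had 37 reads in a cluster in CDS and 25 over its stop codon, Grin1 28 and 12 over stop codons, and Gria4 26. Among presynaptic genes it was 4 of 20 (20.0%) with a median of 6.5 clusters, led by the vesicle glycoprotein gene Sv2b with 73 reads and a miR-128 match, and the SNARE gene Snap25 with 50.

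CaM kinase and calcineurin genes had 7 of 15 (46.7%, 24.8 to 69.9) with a median of 5 clusters per gene. There were 117 reads in Calm3 and 59 in Ppp3ca, the calcineurin catalytic subunit. Ppp3cb had 57, and Camk2a, the gene whose promoter drove Cre, 10. That Camk2a cluster covered 1 base of CDS, 15 of 3' UTR and 102 of intron. Camk2a had 11 clusters in 3' UTR or CDS, with 618 reads. In the miRNA machinery it was 4 of 11 (36.4%), with a median of 5 clusters: Tnrc6a, Tnrc6b with 22 reads, the exporter gene Xpo5 with 12, and Drosha, the nuclease that cuts miRNA precursors, with 76 reads and 2 miR-128 matches at chr15:12934973-12935175. Of RNA-binding and splicing genes it was 4 of 20 (20.0%), with a median of 4 clusters, led by Rbfox2 with 106 reads and a let-7 match, and Celf4 with 38. The cytoskeleton list had 4 of 18 (22.2%), with a median of 3 clusters, led by Stmn2, a neuronal microtubule regulator, with 160 reads at chr3:8560260-8560386, and Map2 with 30.

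Metabolic and housekeeping genes had 8 of 15 (53.3%, 30.1 to 75.2), with a median of 4 clusters per gene. There were 136 reads and a miR-128 match in Eef1a2, the neuronal translation elongation factor, and 44 in the enolase gene Eno2. Ribosomal protein genes had 5 of 14 (35.7%, 16.3 to 61.2) with a median of 1 cluster per gene, among them Rpl6 with 19 reads. Nuclear genes of oxidative phosphorylation had 5 of 16 (31.2%, 14.2 to 55.6), also with a median of 1, led by Cox6a1 with 74 reads, whose cluster covered all 201 bases of its 3' UTR, and Atp5b with 37.

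Cell type markers did not stand clear of the share of all genes at these list sizes. They had a same-gene cluster in 2 of 12 for excitatory forebrain neurons (among them Camk2a with 10 reads), 4 of 12 for astrocytes (Aqp4, a water channel, with 84, Apoe with 40, Aldh1l1 with 18 and Glul with 10) and 1 of 6 for interneurons (Gad2 with 14). Oligodendrocyte markers had 1 of 11 (Ermn with 13) and microglia markers 0 of 5, which with so few genes allows a share of up to 43.4% (Wilson). The median number of clusters per gene was 2 for microglia markers and 3 for the other 4 lists. The intervals of all 5 lists held the 16.96% of all genes, and those of the glutamate synapse, CaM kinase and housekeeping lists lay above it. Beside the share of genes with a like number of clusters, 27.7% for 5 to 9, the intervals of the glutamate synapse (27.3 to 68.3) and CaM kinase (24.8 to 69.9) lists held it. That of the housekeeping list (30.1 to 75.2, median 4) lay above the 21.2% of genes with 3 or 4. Those of the ribosomal protein (16.3 to 61.2) and oxidative phosphorylation (14.2 to 55.6) lists, with a median of 1, lay above the 10.0% of genes with 1 cluster. The intervals of the remaining lists held the share of genes with a like number of clusters. Each list was compared through its median only, and no allowance was made for the number of lists.

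**Figure D5:**
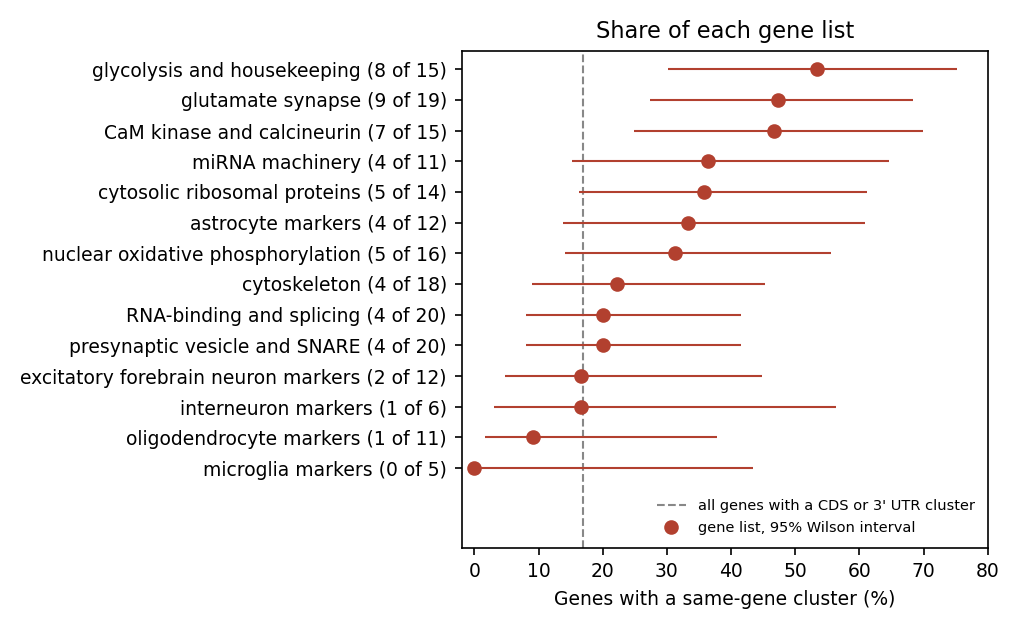
Share of the genes of each list with a same-gene cluster (horizontal axis, percent, points with 95% Wilson intervals), over genes with a 3' UTR or CDS cluster, whose counts stand beside the name. The dashed line marks the 16.96% of all 7897 genes, and 8 of 15 housekeeping and 9 of 19 glutamate synapse genes lie at the upper end.

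The 19 clusters with different names in the columns had a median of 16 reads (12 to 23), the highest being 81. In 16 the names were those of different genes, and Adnp, a neuroprotective homeobox factor, named in CDS with Gm20716 in 3' UTR, gave 5 of them with 150 reads in all, between 11 and 81. Raver1 with Gm38431 gave 2, of 76 and 16 reads, and Hjurp with 6430706D22Rik gave 2, of 12 and 11. The other pairs had 1 each: Chd2 with 1810026B05Rik (39 reads), Moap1 with Gm20604 (23), Syce1l with Mon1b (20), Zfp91 with Gm44505 (17), Atp6v0c with its pseudogene Atp6v0c-ps2 (15), Snrpn with Snurf (11) and Gdf1 with Cers1 (10). Snurf and Snrpn, and Cers1 and Gdf1, are known as pairs read from a shared mRNA.

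The other 3 were not different genes. Their 3' UTR column held a date, as spreadsheet programs write for septin gene symbols: Sep-04 beside Sept4 in CDS (22 reads), Sep-05 beside Sept5 (18) and Sep-07 beside Sept7 (12). Each lay over an annotated stop codon of the septin gene, which encodes a GTP-binding protein of the cytoskeleton. Read as genes, they raise the same-gene share from 98.7% to 98.9%. These names were noticed after the values were seen.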

How the data were processed

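The authors deposited 1 table of clusters, each with a whole-number read count pooled over libraries that are not named, gene columns and seed match counts per miRNA, per the file headers. Reads were aligned with BWA to mm10, per the submitters' processing notes. How clusters were called and annotated, and whether controls or PCR duplicates were removed, is not given in the sources used here. Columns of single libraries numbered 0, so the test of Flag-Ago2 against control could not be made.

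Clusters were classed by the 3' UTR and CDS columns, a shared name making a same-gene cluster. They were placed on GENCODE M21 protein-coding transcripts of the named gene (GRCm38), with starts taken as 0-based and printed as 1-based. Names of 1328 of 1339 genes matched. Of several transcripts over a stop codon, the best APPRIS rank was used. Seed matches were the table's own counts. Where sides of the stop codon were separated, 6-mers were counted in transcript sequence, which equalled the table in all 24000 values of 800 clusters checked. These lay over a stop codon and inside a single exon, so counts in clusters across exon edges were not checked. Intervals are 95% Wilson for shares, exact Poisson for densities and order statistics for medians, and cover counting error only, since PCR used 15 cycles with no molecular identifiers. Placing was tested on simulated data, and all 703 simulated clusters were recovered. They lay in a single exon with the stop codon and were placed on their own transcript. Clusters across introns and the choice among transcripts were thus not tested. Python 3.11.15, pandas 2.3.3, scipy 1.17.1 and matplotlib 3.10.9 were used.

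The members, gene lists and families were chosen with earlier results of these data known. Named were the 10 deepest same-gene clusters, the clusters with different genes, the 5 genes with the most clusters, for 6 families the deepest cluster with a match and with one within 30 bases of the stop codon, and the 2 genes of each list with the most reads. Some genes that this rule names are not reported here. Others were chosen after their values were seen. Alternatives were other read, width and name filters, weighting by reads, and the treatment of names.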

Additional observations from a re-analysis of the deposited data

How the results depend on the processing

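No paired analysis was possible because the table has no columns for single libraries, and leaving out each replicate could not be run for the same reason. Of 122 values under alternatives, 102 stayed within the interval of the reported value and 20 moved. With at least 50 reads per cluster, 8.20% of clusters named both regions, 88.9% of same-gene clusters lay over a stop codon, the log2 ratio of median reads to CDS only clusters was 0.14 (0.13 with at least 20 reads) and that of miR-128 matches per kb was -0.43. With clusters of at most 200 bases the shares were 5.81% and 80.4%. Without clusters that name an intron, 5' UTR or antisense gene they were 7.54% and 91.0%, with the same gene in 99.2%, and without circRNA identifiers 7.27% and 85.9%. The share centred within 50 bases of the stop codon ran from 52.7% with at least 50 reads to 78.2% with at most 200 bases. The causes were not tested. Alternatives chosen after seeing the data were the septin names, stop codons of any transcript type and leaving out Tnrc6a, under which none of the values moved. Depth is known only as the pooled count per cluster.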

Other observations

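Date names were not limited to the 3 septin clusters. Over all clusters, 15 carried one, all in the 3' UTR column, and 0 in the CDS, 5' UTR, intron or antisense columns. Septin symbols stood intact in 25 CDS and 56 intron clusters and in 0 of the 3' UTR column.

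In genes with a same-gene cluster, these clusters held a median of 38.9% of the gene's 3' UTR and CDS reads, and 27.6% in the 1012 genes that also had other such clusters.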
